A study of Mus musculus with 4 samples.

Results

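Translation initiation factors are the proteins that bring a ribosome to the start codon of an mRNA. Their genes were taken from the deposited table by name: every gene whose symbol starts with Eif1, Eif2, Eif3, Eif4, Eif5 or Eif6, leaving out the eIF2α kinases (Eif2ak) and pseudogenes with -ps in the name. That gave 51 of 26207 genes. Of 60 symbols with those beginnings, 4 were kinases and 5 were pseudogenes.

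Transcripts were measured by bulk RNA-seq in 4 libraries of mouse T helper 2 (Th2) cells, the CD4 T cells known for type 2 cytokines, with spleen as the stated tissue. The PBS group had 2 libraries of cells given phosphate-buffered saline and the dopamine group had 2 libraries of cells given 10 µM dopamine, a catecholamine neurotransmitter. The study's title concerns resident memory Th2 cells and sympathetic nerves in the lung. The groups used here compare bulk transcripts of Th2 cell libraries given dopamine with those given PBS. The sources used here give no mouse strain, age, treatment time or way of making the Th2 cells. They also do not say if the libraries came from different mice or cultures, so a p-value speaks only to how far these libraries spread, and that spread may be technical.

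Initiation starts when eIF2, bound to GTP, loads the initiator tRNA onto the small ribosomal subunit, with eIF1, eIF1A, eIF3 and eIF5 on the same particle. The eIF4F complex, made of the cap-binding protein eIF4E, the scaffold eIF4G and the helicase eIF4A, brings the mRNA. After scanning to the start codon, eIF5 triggers GTP hydrolysis, eIF2B recharges eIF2, and eIF5B helps the large subunit to join. Resting T cells hold translation low and raise it when they are activated.

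Each group's libraries are called A and B, and pairs of values are given in that order, PBS first and then dopamine; the letters do not pair libraries across groups. The libraries held 5717408 to 14167357 reads assigned to genes. Values are the authors' normalized counts, that is reads divided by 1 size factor per library. A read was worth 1.70 of these units in PBS A and 0.766 to 0.971 in the others. A log2 fold change is the dopamine mean minus the PBS mean of log2(value + 1), with a standard error (SE) and an adjusted p from limma's test (Benjamini-Hochberg over 26207 genes, 2-sided), and a call means an adjusted p below 0.05. The 6 helper T cell markers (Cd4, Trac, Trbc2 and the Cd3 genes d, e and g) summed to 23427 to 26597 in every library, with 3 called higher and Trac lower. The 5 Th2 markers summed to 678 to 688 with PBS and 1675 to 1683 with dopamine: Il4, Il5 and Il13 were called higher, Il1rl1, the IL-33 receptor, lower (log2 fold change -0.91), and Gata3 was not called (-0.08). Markers of other cells moved with the groups. The 5 basophil and mast cell genes, all called lower, summed to 1972 to 2329 with PBS and 586 to 663 with dopamine, the 3 red cell and platelet genes found to 1162 to 1347 and 288 to 315, and the 4 myeloid genes to 134 to 152 and 49.4 to 57.3. The 4 B cell genes went the other way, from 103 to 129 up to 313 to 322. The pair of CD8 genes also summed higher, from at most 107 up to 206 to 209. Of that pair Cd8a was called (log2 fold change 1.96) and Cd8b1 was not (0.41). The pair of NK cell genes summed to 23.8 or less in every library. None of these markers was at 0 in all libraries. Hba-a1 and Hbb-bs were not found under those names among the genes, so they could not be summed. Their part in the results below was not tested. In bulk RNA, a different number of cells of a type and a different amount of RNA per cell cannot be told apart.

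Dopamine libraries held more transcript of most initiation factors. Of the 51 members, 41 were called higher and 1 lower, and 9 were not called. Over all genes 14.3% were called higher and 7% lower. Most members were abundant, and abundant genes as a class leaned upward: among genes averaging 500 normalized counts or more, 48.7% were called higher and 8.36% lower, against 38 higher and 0 lower of the 42 members at that level. At means of 100 to 500, 3 of 5 members were called higher and 0 lower, beside 30% and 7.46% of genes at that level. The median log2 fold change was 0.45 for the 51 members, 0.21 for all genes averaging at least 500, and -0.08 for all genes. Both dopamine libraries lay above both PBS libraries for 45 members, which held for 28.5% of all genes and 67.8% of genes averaging at least 500. Both lay below for 1 member, which held for 30.4% of all genes. Together the members took 1.19% and 1.18% of the reads in the PBS libraries and 1.42% in each dopamine library.

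**Figure D1:**
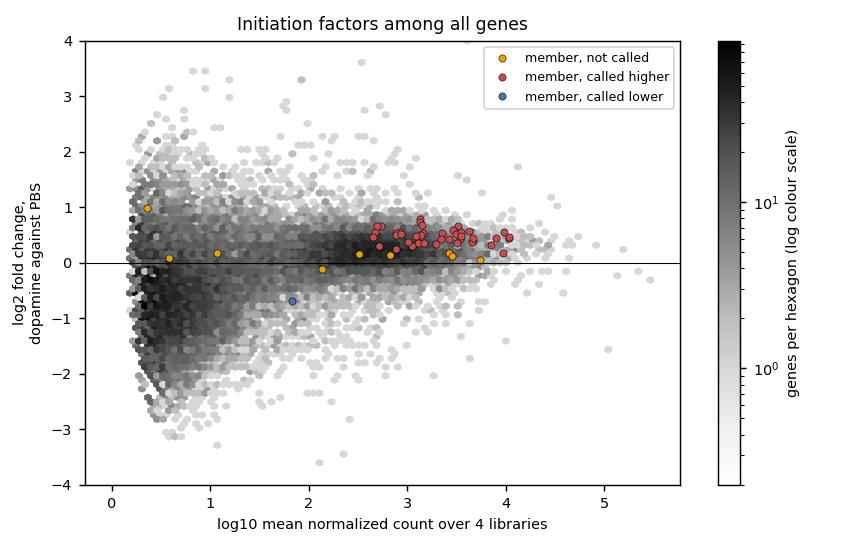
Log2 fold change, dopamine against PBS (vertical axis), against the log10 mean normalized count over the 4 libraries (horizontal axis). Grey hexagons are all genes, darker for more genes, with the few beyond ±4 not drawn, and coloured points are the 51 initiation factors: 41 called higher, 1 called lower and 9 not called.

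The upward lean of abundant genes depends on how the libraries are scaled. When the libraries were rescaled so that genes averaging at least 100 centred near 0, the median of those genes went from 0.20 to 0.003 and that of the members from 0.45 to 0.25. Of all genes called, the share called higher went from 67.1% to 36.3%. Then 32 members were called higher and 2 lower, against 6.9% and 12.1% of all genes, and 24.7% and 21.4% of genes averaging at least 500. All 32 were among the 41. The members that lost their call then were Eif1ad, Eif1b, Eif2a, Eif2d, Eif2s3y, Eif3e, Eif4b, Eif4e and Eif4e2, whose log2 fold changes had been 0.18 to 0.37. The number called higher was also 32 with upper-quartile scaling, and it was 35 without PBS A, the shallowest library. A set of 32 members was called higher in each of the 17 fits made.

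**Figure D2:**
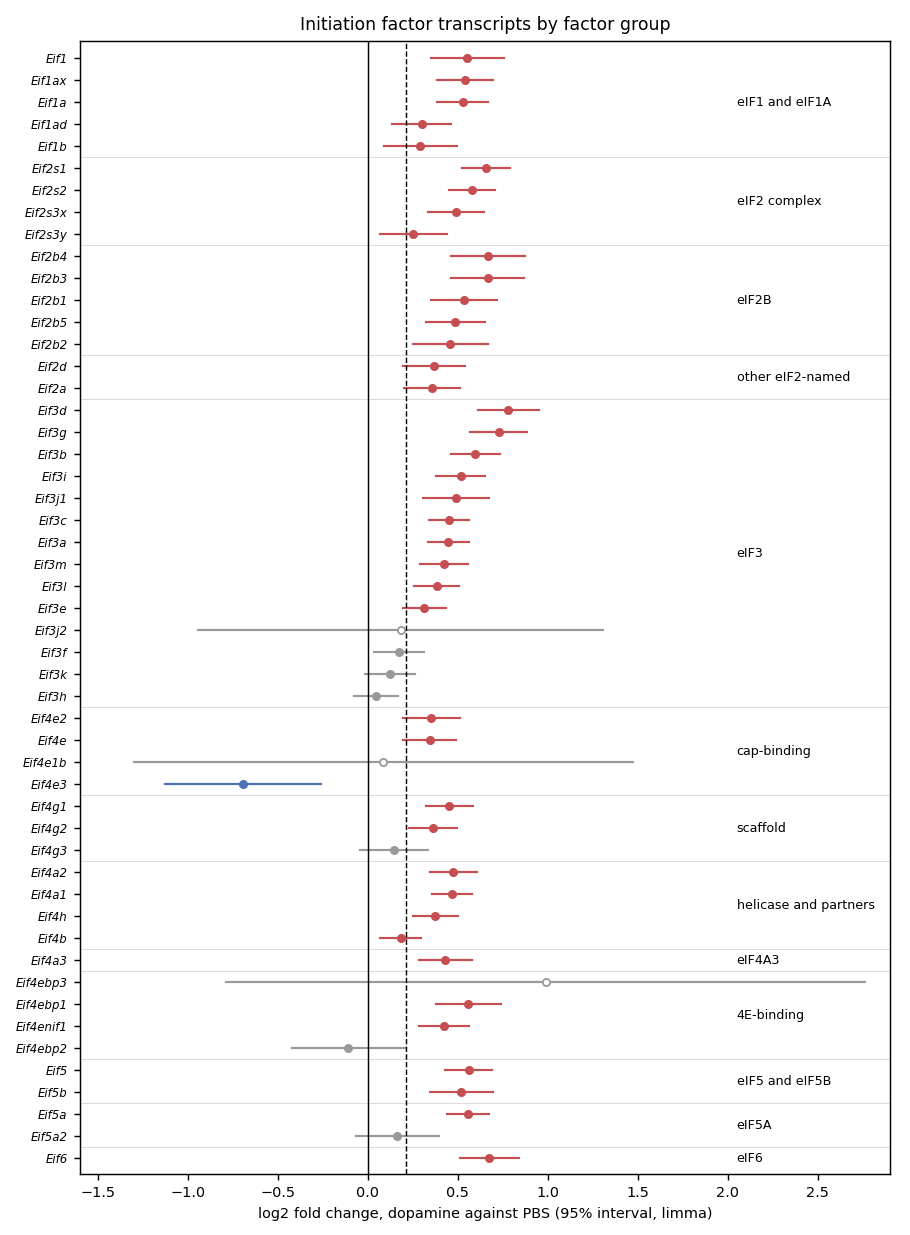
Log2 fold change, dopamine against PBS, with 95% interval from limma, for each of the 51 members grouped by role. Red is called higher, blue lower and grey not called, open points have a mean under 20, and the dashed line is the median of genes averaging at least 500, at 0.21. Most red points lie right of that line, while, of the filled points, Eif3h, Eif3k, Eif3f, Eif4b, Eif4g3, Eif5a2, Eif4ebp2 and Eif4e3 lie left of it.

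All 5 genes with names in Eif1, the eIF1 and eIF1A group, rose, with a median of 0.53. Beside this, 48.7% of genes averaging 500 or more and 30% of those averaging 100 to 500 were called higher. Eif1, whose product keeps the scanning ribosome from stopping at wrong codons, was at 381 and 373 with PBS and at 556 and 551 with dopamine (log2 fold change 0.55, SE 0.10, adjusted p = 3.99e-05). Eif1a, which encodes a form of eIF1A, the factor in the ribosome's A site, was at 1843 and 1814 against 2678 and 2593 (0.53). Its X-linked form Eif1ax was at 1201 and 1142 against 1741 and 1663 (0.54). For each of these the dopamine libraries lay well clear of the PBS libraries, and the log2 ratio of Eif1a to Eif1ax within a library stayed between 0.62 and 0.67 in all 4. Eif1ad, an eIF1A domain gene, was at 975 and 1037 against 1203 and 1272 (0.30), a call that ended without PBS A (0.25) or dopamine B (0.26). Eif1b, the paralog of Eif1, was at 443 and 490.3 against 587 and 555 (0.29, adjusted p = 0.0299), and that call ended in several alternatives, among them without PBS A (0.22), dopamine A (0.25) or dopamine B (0.33), with edgeR's TMM (0.18), in DESeq2 (0.28) and after a GC and length correction (0.15). Within a library, the log2 ratio of Eif1 to Eif1b was -0.22 and -0.39 in the PBS libraries and -0.08 and -0.01 in the dopamine libraries, so the paralogs were closer to each other with dopamine. Of the 50-base words in the longest Eif1 transcript, 31.6% also occur in transcripts of other genes, so part of its reads could have been dropped or misplaced.

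All 4 genes of the eIF2 complex rose, beside 48.7% of all genes averaging 500 or more. Eif2s1, on chromosome 12 from 78861819 to 78887010 (mm10), encodes eIF2α, the subunit that stress kinases phosphorylate. It was at 2570.1 and 2541 with PBS and at 4215 and 3853 with dopamine, a rise of 57.9% (log2 fold change 0.66, SE 0.07, adjusted p = 1.02e-10). Eif2s2, encoding the β subunit, was at 3409 and 3445 against 5308 and 4926 (0.58). Eif2s3x, encoding the GTP-binding γ subunit from the X chromosome, was at 1160.2 and 1152 against 1589.9 and 1657 (0.49). PBS libraries agreed closely for all 3 genes, and every dopamine value was above them by far more than the spread. The Y-linked copy Eif2s3y was at 719 and 692 against 903 and 782 (0.25, adjusted p = 0.0409). Its call ended in several alternatives, among them TMM scaling (0.23), DESeq2 (0.26), edgeR's TMM (0.16) and the fits without PBS A (0.28), PBS B (0.23) or dopamine A (0.15). The log2 ratio of Eif2s3x to Eif2s3y was 0.69 and 0.74 with PBS and 0.81 and 1.08 with dopamine. Words shared with other transcripts make up 36.2% of Eif2s3x, among them those of Eif2s3x-ps1, so its level is uncertain.

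The exchange factor eIF2B, which returns eIF2 to its GTP form, has 5 subunits and all 5 genes rose, also after rescaling. Shares called higher were 48.7% of genes averaging 500 or more (24.7% after rescaling) and 30% of those averaging 100 to 500. Eif2b4 (δ) was at 384 and 449 against 615 and 709, a log2 rise of 0.67 (SE 0.10, adjusted p = 1.88e-06). Eif2b3 (γ) was at 375 and 385 against 625 and 584 (0.67). Eif2b1 (α) was at 586 and 656 against 855 and 943 (0.53). These are regulatory subunits and one of the catalytic arm, and in each the groups were apart. Eif2b5, encoding the catalytic ε subunit, was at 1007 and 1054 against 1373 and 1518 (0.49). Eif2b2 (β) was at 365 and 385 against 515 and 516 (0.46). The 5 subunits thus lay within 0.46 to 0.67, and the 5 genes of the eIF1 and eIF1A group within 0.29 to 0.55. The ranges of eIF3 and eIF4 were wider, but over 14 and 16 genes, some of them with few reads. The log2 ratio of Eif2b5 to Eif2s1, the exchange factor's catalytic subunit against its substrate, was -1.35 and -1.27 with PBS and -1.62 and -1.34 with dopamine, so the groups overlapped.

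Eif2a and Eif2d encode factors that can deliver initiator tRNA apart from eIF2. Eif2a was at 1260.4 and 1337 against 1696 and 1632 (log2 fold change 0.36, adjusted p = 3.64e-04). Eif2d was at 849 and 941 against 1098 and 1209.8 (0.37, adjusted p = 0.00105), and the fits without PBS A (0.29) or dopamine B (0.30) did not call it. Both had smaller fold changes than the eIF2 and eIF2B genes other than Eif2s3y, and neither was called after rescaling on abundant genes (0.16 and 0.17).

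**Figure D3:**
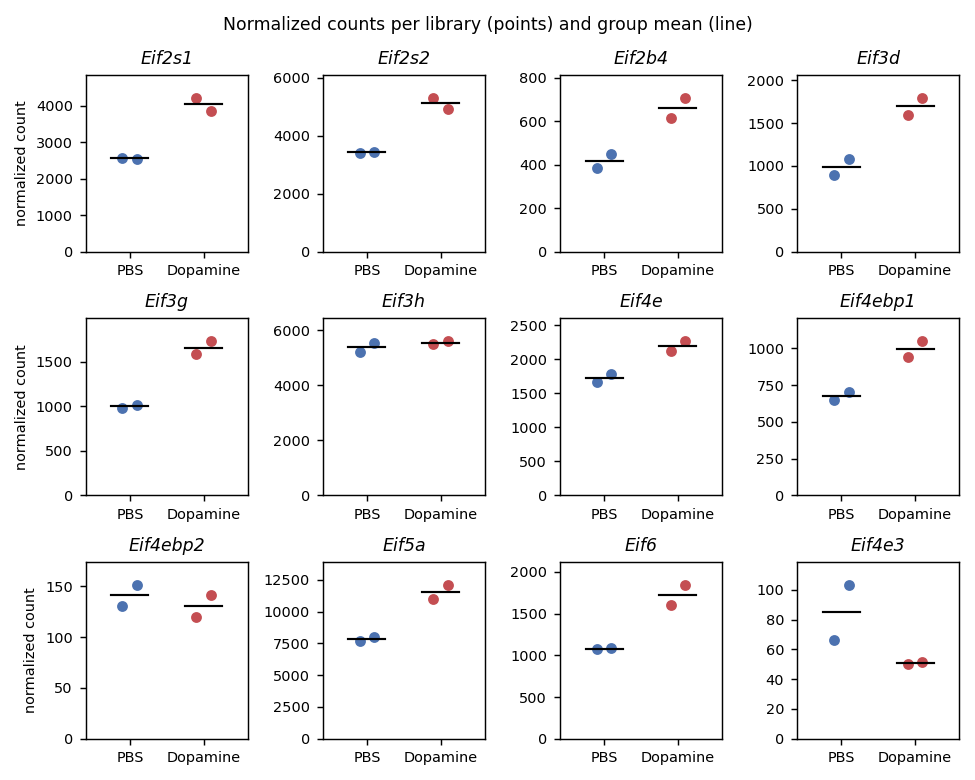
Normalized counts of 12 members in each library (points, vertical axes from 0) with the group mean (line); in each group A is drawn left of B. Dopamine points lie above PBS points for Eif2s1, Eif2s2, Eif2b4, Eif3d, Eif3g, Eif4e, Eif4ebp1, Eif5a and Eif6, overlap with them for Eif3h and Eif4ebp2, and lie below for Eif4e3.

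eIF3 is the largest initiation factor, a scaffold on the small subunit. Of its 14 genes, 10 rose and 0 fell, with a median of 0.44 and a range of 0.04 to 0.78. Among all genes averaging 500 or more, 48.7% were called higher and 8.36% lower, with a median of 0.21. Eif3d, on chromosome 15 from 77958998 to 77970813, encodes a cap-binding subunit and had the highest log2 fold change of the 48 members with a mean of at least 20. It was at 897 and 1082 with PBS and at 1596 and 1796 with dopamine, a rise of 71.4% (log2 fold change 0.78, SE 0.09, adjusted p = 7.56e-10). Eif3g, encoding an RNA-binding subunit, was at 987 and 1019.8 against 1591 and 1734 (0.73, SE 0.08, adjusted p = 7.90e-10). In both genes the gap between the groups was wider than the spread within either. Eif3b and Eif3i encode propeller proteins that form a module with eIF3g. Eif3b was at 2215 and 2407 against 3456 and 3531 (0.60). Eif3i was at 2480.1 and 2656 against 3576 and 3767 (0.52). Eif3j1, encoding the loosely bound j subunit, was at 613 and 649 against 934 and 843 (0.49), with 39.8% of its words shared, mostly with Eif3j2.

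The other subunits form an octamer of PCI and MPN domain proteins. Eif3a and Eif3c encode its large central pair. Eif3a was at 6834 and 6703 against 9274 and 9179 (log2 fold change 0.45). Eif3c was at 8799 and 9275 against 12271 and 12393 (0.45). The groups were well apart, and both genes kept their call in each fit made. Eif3m was at 2793 and 3128 against 3986 and 3944 (0.42), with 13.5% of its words shared. Eif3l was at 4055 and 3961 against 4975 and 5477 (0.38). Eif3e was at 6289 and 6224 against 8133 and 7433 (0.31, adjusted p = 5.63e-05). Those 3 octamer genes also had every dopamine value above every PBS value, as did 67.8% of genes averaging at least 500. Eif3e was no longer called after rescaling (0.12).

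Eif3f, Eif3k and Eif3h, which encode the remaining octamer subunits, were not called. Eif3f was at 2375 and 2569 against 2706 and 2858 (log2 fold change 0.17, 95% interval 0.03 to 0.31, adjusted p = 0.0715). Eif3k was at 2745 and 2747 against 2849.7 and 3138 (0.12, interval -0.01 to 0.26). Eif3h was at 5215 and 5539 against 5483 and 5604 (0.04, interval -0.08 to 0.17, adjusted p = 0.65), and its groups overlapped. These upper bounds are below the log2 fold changes of Eif3a and Eif3c. When rescaled on abundant genes, Eif3h was called lower at -0.15 (adjusted p = 0.0346), and Eif3f and Eif3k were at -0.02 and -0.07. Eif3f was called when genes under 5 CPM, a read count relative to library depth, were left out of the fit. For Eif3h, 26.2% of words are shared with other transcripts. Eif3j2, near-identical to Eif3j1 over 91.8% of its words, was at 3.40 and 20.7 against 17.0 and 5.83, too few reads to compare.

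A ratio within a library does not depend on its scaling. For Eif3h to Eif3a the log2 ratio was -0.39 and -0.28 with PBS and -0.76 and -0.71 with dopamine. The ratio of Eif3k to Eif3a went from -1.32 and -1.29 to -1.70 and -1.55, and that of Eif3f to Eif3a from -1.52 and -1.38 to -1.78 and -1.68. The ratio of Eif3d to Eif3a went the other way, from -2.93 and -2.63 to -2.54 and -2.35. In these 4 pairs, chosen after the fold changes were seen, the groups did not overlap. Such separation was common among single genes, with dopamine above in 28.5% and below in 30.4%. The share of gene pairs whose ratios separate was not counted, here or for the ratios below. With 2 libraries against 2, an exact permutation test cannot give a p below 0.333, so no ratio was tested. All 5 subunits outside the octamer (Eif3b, Eif3d, Eif3g, Eif3i and Eif3j1) had log2 fold changes of 0.49 to 0.78, and the 8 octamer subunits 0.04 to 0.45. The mean log2 level of the 5 minus that of the 8 was -1.83 and -1.75 with PBS and -1.47 and -1.45 with dopamine. Corrected for length and GC content, the ranges overlapped, at 0.51 to 0.80 and -0.04 to 0.55, with medians of 0.54 and 0.41. The split was noticed in these values and is a description.

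**Figure D4:**
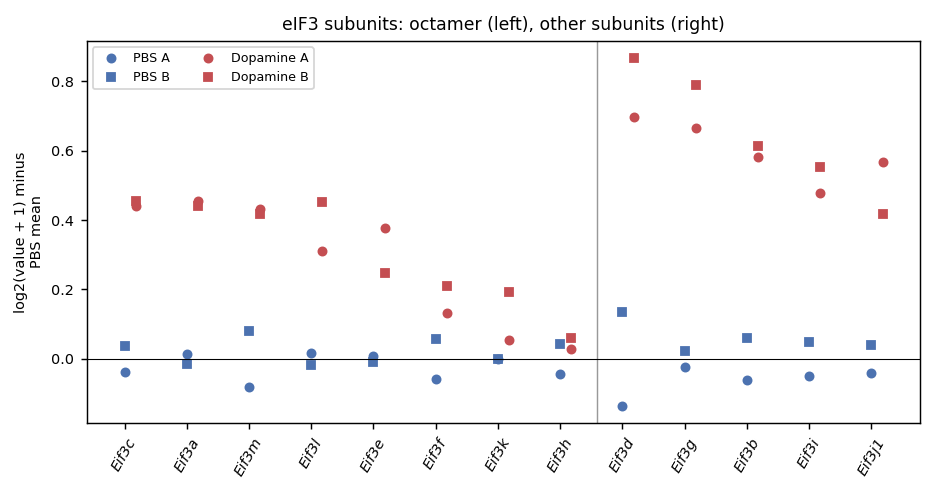
The 13 eIF3 subunits other than Eif3j2: log2(value + 1) in each library minus the mean of the 2 PBS libraries, with the octamer left of the grey line and the other subunits right of it. Dopamine libraries (red) rise highest for Eif3d and Eif3g and stay near the PBS libraries (blue) for Eif3h.

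Levels of eIF3 subunits differed per length. With PBS, mean normalized counts per kilobase of annotated exon were 3336 for Eif3h, 2574 for Eif3c and 1143 for Eif3m, and 199 for Eif3d and 108 for Eif3j1 at the low end. The order places the least-changed subunit, Eif3h, highest with PBS. With dopamine Eif3c stood at 3512 per kilobase and Eif3h at 3439, so Eif3c was then slightly the higher of the pair. Exon length is the union over annotated transcripts, which understates genes with long unused exons.

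Among eIF4 genes, 11 of 16 rose and 1 fell, with a median of 0.37. After rescaling, 8 were called higher and 1 lower. For all genes averaging 500 or more, 48.7% were called higher and 8.36% lower, or 24.7% and 21.4% after rescaling. Eif4e, on chromosome 3 from 138526179 to 138559696, encodes the cap-binding protein that is often the limiting part of eIF4F. It was at 1663 and 1787 with PBS and at 2112 and 2263 with dopamine, a rise of 26.8% (log2 fold change 0.34, SE 0.07, adjusted p = 3.50e-04). Its call ended without PBS A (0.29) and after rescaling (0.15). Eif4e2, encoding the repressive cap-binding protein 4EHP, was at 1129.6 and 1136 against 1458 and 1436 (0.35), and the call also ended after rescaling (0.16). For Eif4e to Eif4e2 the log2 ratio was 0.56 and 0.65 with PBS and 0.53 and 0.66 with dopamine, with overlapping groups.

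Eif4e3, encoding an atypical cap-binding protein, was the 1 member called lower. It was at 66.2 and 103 with PBS and at 50.1 and 51.5 with dopamine (log2 fold change -0.69, SE 0.21, adjusted p = 0.0151). Both dopamine libraries were below both PBS libraries, but the PBS libraries were far apart. The call ended without PBS B (-0.38), dopamine A (-0.68) or dopamine B (-0.71) and in DESeq2 (-0.77, adjusted p = 0.0978), so the count of members called lower was then 0. Eif4e3 overlaps the gene model Gm20696 on the same strand, and 12.7% of its words are shared. The oocyte form Eif4e1b was at 3.09 to 4.85 in all libraries, a few reads.

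Of the 3 scaffold genes 2 rose, and of the 4 genes of the helicase and its partners all 4 did. All average 500 or more, a level at which 48.7% of genes were called higher. Eif4g1, the main scaffold, was at 3781 and 3997 against 5023 and 5638 (log2 fold change 0.45). Eif4g2, encoding a related protein that lacks the site for eIF4E, was at 2694 and 2913 against 3560.2 and 3640.2 (0.36). Eif4g3, the paralog of Eif4g1, was at 601 and 674 against 693 and 717 (0.15, 95% interval -0.04 to 0.33, adjusted p = 0.286) and was not called, though its dopamine values lay just above its PBS values. Against Eif4g3, the log2 ratio of Eif4g1 was 2.65 and 2.57 with PBS and 2.86 and 2.97 with dopamine. Corrected for length and GC content, Eif4g3 was called, at 0.29, and the change in that ratio went from 0.31 to 0.18. The ratio of Eif4g1 to Eif4g2 moved little, from 0.49 and 0.46 to 0.50 and 0.63, and its change turned from 0.09 to -0.03 after that correction.

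Eif4a1, on chromosome 11 from 69666936 to 69672423, encodes the helicase of eIF4F and was the most abundant member by normalized count. It was at 8854 and 9348 against 12399 and 12729.6 (log2 fold change 0.47, SE 0.05, adjusted p = 5.31e-09), with 33.3% of its words shared with other transcripts, Eif4a-ps4 among them. Its paralog Eif4a2 was at 2981 and 2928 against 4202 and 4012 (0.47), with 11.5% of its words shared. Between the helicase paralogs the log2 ratio was 1.57 and 1.67 with PBS and 1.56 and 1.67 with dopamine, so the groups overlapped. Eif4a3, the helicase of the exon junction complex, which has a role in splicing rather than scanning, was at 1738 and 1994 against 2513 and 2505 (0.43). Of the Eif4a3 words, 24.4% are shared with other transcripts. Eif4h and Eif4b encode RNA-binding partners that stimulate eIF4A. Eif4h was at 3819 and 4068 against 4948 and 5282 (0.38). Eif4b was at 8585 and 8800.2 against 9567 and 10152 (0.18, adjusted p = 0.0152). The Eif4b call ended without PBS A (0.16), PBS B (0.20) or dopamine B (0.14) and with edgeR's TMM (0.08), and the value turned to -0.01 after rescaling on abundant genes. For its level against its helicase, the log2 ratio of Eif4b to Eif4a1, a pair chosen after the values were seen, was -0.04 and -0.09 with PBS and -0.37 and -0.33 with dopamine.

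The 4E-BP proteins bind eIF4E and block its hold on eIF4G until mTORC1 phosphorylates them. Eif4ebp1, on chromosome 8 from 27260329 to 27276674, was at 649 and 702 against 941 and 1049.6 (log2 fold change 0.56, SE 0.09, adjusted p = 3.76e-06). Eif4ebp2 was at 131 and 152 against 120.3 and 142 (-0.11, 95% interval -0.42 to 0.20, adjusted p = 0.672), with overlapping groups. The log2 ratio of Eif4ebp1 to Eif4ebp2 had a mean of 2.25 with PBS and 2.92 with dopamine, a change of 0.67, with no overlap between groups. Against Eif4e itself, Eif4ebp1 went from -1.36 and -1.35 to -1.17 and -1.11, and Eif4ebp2 from -3.66 and -3.55 to -4.12 and -3.99. Neither ratio overlapped between groups, one lying higher with dopamine and the other lower, and the change in the first went from 0.22 to 0.10 with the length and GC correction. Eif4ebp3 was at 0 to 3.09 normalized counts, too few to compare, with 65.5% of its words shared. Eif4enif1, which encodes the carrier that takes eIF4E into the nucleus, was at 2210.0 and 2348 against 2988 and 3125 (0.42).

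**Figure D5:**
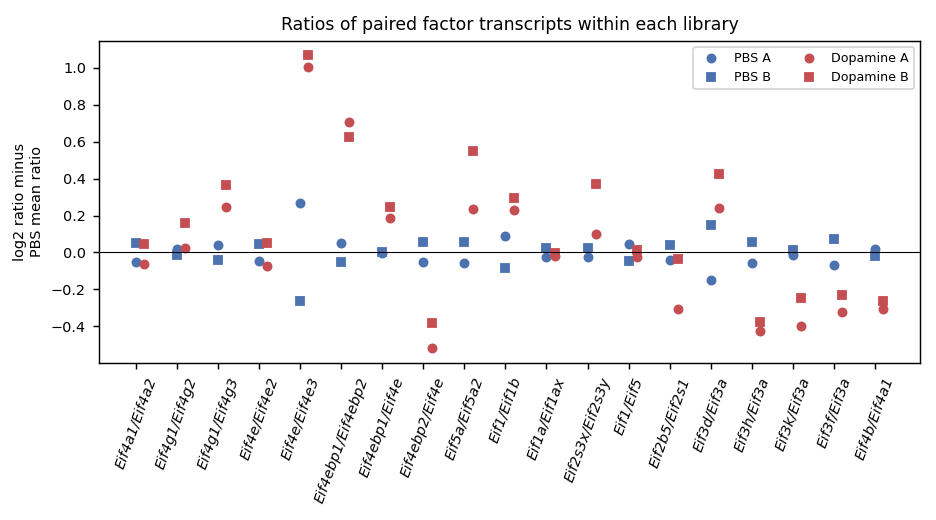
Log2 ratio of the first to the second gene of each pair within each library, minus the mean of the PBS libraries; the 5 pairs at the right were chosen after their values were seen, and Eif3j1/Eif3j2 is left out for its few reads. Dopamine libraries stand apart from PBS libraries for Eif4ebp1/Eif4ebp2 and Eif3h/Eif3a and overlap with them for Eif4a1/Eif4a2, Eif4e/Eif4e2 and Eif1a/Eif1ax.

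Factors of the late steps rose as well, beside 48.7% of all genes averaging 500 or more called higher (24.7% after rescaling). Eif5, whose product makes eIF2 hydrolyse its GTP, was at 2808 and 2929.8 against 4305 and 4153 (log2 fold change 0.56, SE 0.06, adjusted p = 3.29e-09). Eif5b, encoding the GTPase of subunit joining, was at 679 and 738 against 1042 and 989 (0.52). Eif1 and Eif5, which act against each other on start codon stringency, both rose, and their log2 ratio was -2.88 and -2.97 with PBS and -2.95 and -2.91 with dopamine. The groups overlapped, and the change in this ratio went from -0.0064 to -0.13 with the length and GC correction. Eif6, whose product keeps large subunits from joining too early and is needed to make them, lies on chromosome 2 from 155819832 to 155826925. It was at 1070.2 and 1081 against 1601 and 1845, a rise of 60.2% (0.68, SE 0.08, adjusted p = 6.51e-09).

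Eif5a encodes the hypusine-bearing factor that helps ribosomes through difficult peptide bonds. Lying on chromosome 11 from 69916714 to 69921958, it was at 7710.4 and 7986 with PBS and at 10979.9 and 12115 with dopamine (log2 fold change 0.56, SE 0.06, adjusted p = 1.62e-10). Its paralog Eif5a2 was at 313 and 299 against 363 and 322 (0.16, 95% interval -0.07 to 0.39, adjusted p = 0.338) and was not called. Against that paralog, the log2 ratio of Eif5a was 4.62 and 4.74 with PBS and 4.91 and 5.23 with dopamine, a change of 0.39 that went to 0.22 with the length and GC correction. Both enzymes that put hypusine on eIF5A rose: Dohh was at 141 and 186 against 319 and 325 (0.99, adjusted p = 1.15e-07), and Dhps at 112 and 162 against 209 and 221 (0.67, adjusted p = 7.00e-04). At their level, means of 100 to 500, 30% of genes were called higher.

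Other genes of the pathway came from lists that are not members. Named genes are those with the smallest p, and those named for being the single call or absence of one in a list were chosen after their values were seen. Of 26 regulators and partners of initiation, 14 rose and 1 fell (9 and 4 after rescaling), with a median of 0.28. For genes averaging 500 or more these were 48.7% and 8.36% (24.7% and 21.4% after rescaling), with a median of 0.21. The 14 called higher thus lay near the share for abundant genes. Over all genes the shares were 14.3% and 7% (6.9% and 12.1% after rescaling). Several of the 26 average less than 500, Impact among them. Impact, an inhibitor of GCN2 activation, was at 268 and 282 against 580.1 and 534 (log2 fold change 1.01, adjusted p = 3.59e-10). The others with the smallest p were Abce1, the ribosome recycling factor (0.46), Denr, which with MCTS1 handles reinitiation (0.64), and Pabpc4, a poly(A)-binding protein (0.57). Pdcd4, an inhibitor of eIF4A, was the 1 that fell, from 2237 and 2418 to 1878 and 1851 (-0.32, adjusted p = 6.72e-04). Of the 4 eIF2α kinases 0 rose and 1 fell: Eif2ak3, encoding the ER stress kinase PERK, went from 396 and 481 to 243 and 294 (-0.70, adjusted p = 9.00e-06). After rescaling Eif2ak2, encoding PKR, was called lower too (-0.33). Beside these, 14.3% of all genes were called higher and 7% lower, and 7.46% of genes averaging 100 to 500 were called lower. After rescaling, 12.1% of all genes and 21.4% of those averaging at least 500 were called lower. Of 10 elongation and release factors 8 rose and 0 fell (7 and 0 after rescaling), with a median of 0.44, beside 14.3% and 7% of all genes and the same 48.7% and 8.36% of abundant genes. Eef1g (0.58) and Eef1d (0.50), parts of the eEF1 exchange complex, Etf1, the release factor (0.55), and Eef2, the translocase (0.43), had the smallest p. Of the pair of mitochondrial initiation factors Mtif2 was called (0.29) and Mtif3 was not (0.11).

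Promoter windows were searched for short motifs on both strands, in RefSeq windows (GRCm38.p6, the same assembly as mm10) from 250 bases before to 50 after each start. Windows were found for 39 of the 51 members. The E-box CACGTG, known as a site for Myc, occurred in 10 of the 39 (25.6%), against 8.09% of all genes with windows and 12.7% of those with a mean of at least 100. The ETS motif CCGGAAG occurred in 15 (38.5%), against 9.93% and 24.6%. The ATF4-type element TGATGNAAN occurred in 1, Eif2s3x, or 2.56%, against 4.5% and 2.65%. Member windows with an E-box belonged to Eif1b, Eif3a, Eif3f, Eif3k, Eif4a1, Eif4e, Eif4g1, Eif4h, Eif5a and Eif5a2. The stretches below show E-boxes before a RefSeq start of members that rose (Eif4a1, Eif4g1, Eif5a) and of members that were not called (Eif3f, Eif3k, Eif5a2), and the ETS motif of Eif3d, which had the highest fold change of the members with a mean of at least 20. The Eif4g1 and Eif5a stretches lie before an internal start: both are inside the gene as GENCODE M21 annotates it, outside its exons, while the others lie upstream of the annotated gene. Capitals mark the motif, and each stretch is 5′ to 3′ on the strand of the gene.
Eif4a1 (chr11:69672587-69672632, minus strand): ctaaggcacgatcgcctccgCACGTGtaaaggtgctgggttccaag
Eif4g1 (chr16:20672653-20672698, plus strand): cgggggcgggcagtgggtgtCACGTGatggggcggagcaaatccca
Eif5a (chr11:69921435-69921480, minus strand): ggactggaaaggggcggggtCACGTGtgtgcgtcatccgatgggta
Eif5a2 (chr3:28781115-28781160, plus strand): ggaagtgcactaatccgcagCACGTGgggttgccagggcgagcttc
Eif3f (chr7:108934327-108934372, plus strand): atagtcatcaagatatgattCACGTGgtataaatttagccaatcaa
Eif3k (chr7:28981907-28981952, minus strand): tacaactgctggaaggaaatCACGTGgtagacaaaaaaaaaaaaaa
Eif3d (chr15:77970868-77970914, minus strand): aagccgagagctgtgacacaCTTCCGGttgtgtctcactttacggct

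For the E-box, the 10 holders had a median log2 fold change of 0.36 (7 called higher), and the 29 members with windows but no E-box had 0.47 (27 called higher). For the ETS motif the medians were 0.42 in 15 holders and 0.46 in 24 others. In the Eif3d stretch the motif reads on the opposite strand to the gene. A match is a description of letters in the window, not of a bound site.

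In the authors' deposited table, 39 members had an adjusted p below 0.05 in the upward direction and 0 in the downward direction, and 3 had no adjusted p. Of the 12997 genes with an adjusted p in the authors' deposited table, 19.6% were below 0.05 upward and 5.53% downward. The authors' deposited table gives Eif3d a log2 fold change of 0.77 and Eif2s1 one of 0.66.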

How the data were processed

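Per the labels' protocols, total RNA of Th2 cells was sequenced after TruSeq Stranded mRNA preparation. FastQC 0.11.2, TopHat2 2.0.13, HTSeq 0.6, DESeq2 and R 3.6.2 and build mm10 are named per the submitters' processing notes, while the sources used here do not give the annotation or strand setting. For 14 members a gene lies on the opposite strand, so reads of both may have been mixed. The 4 deposited library columns, called counts in the file header, hold a signal that is not whole: reads divided by 1 size factor per library, as the values show. The deposited log2 fold change and its SE, test score and p-values stand under DESeq2's column names, per the file headers. Columns carry numbers 2 and 3 where titles have replicates 1 and 2, so they were matched to groups only. The values were whole multiples of 1 read for 100% of genes within 0.01, and reads were recovered; on them edgeR's quasi-likelihood test with TMM called 5219 genes.

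Limma 3.58.1 (R 4.3.3) with a mean-variance trend was run on log2(value + 1) of all 26207 genes, unfiltered. Its prior degrees of freedom, 42.4, mean that p-values rest mostly on spread pooled over genes. Alternatives were other scalings (TMM, upper-quartile, genes with a mean of at least 100), a pseudocount of 0.1, a filter at 5 CPM, edgeR 4.0.16 (TMM, DESeq2 size factors, no filter), DESeq2 1.42.0, limma-voom, a correction for GC content and length (11384 genes), a block, and each library left out. That correction removed, in each library, loess fits of its deviation from the gene's mean log2 value on GC content and then on length. The limma and edgeR tests were first tried on simulated data. Of genes changed by a log2 of 0.5, limma recovered 74% and edgeR 82%, and both recovered 100% at a log2 of 1. Members, lists and tests were chosen with earlier results of these data known. Members with a mean of at least 20 are described if called or of a central role, and of the other lists at most 4 called genes with the smallest p. Outside that rule, values are also given for Eif3f, Eif3h, Eif3k, Eif4g3 and Eif5a2, which were not called. The same holds for Eif3j2, Eif4e1b and Eif4ebp3, which have means under 20. Locations, exon lengths and 50-base words shared between transcripts are from GENCODE M21 (all 51 members matched). Of 26207 gene names, 24693 had a single location there.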

Additional observations from a re-analysis of the deposited data

How the results depend on the processing

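Of 16 alternatives, the number of members called higher ran from 32 to 42, against 41. For members called lower it was 2 with scaling centred on genes averaging 100 or more (1 of them in eIF3), 0 in DESeq2, where eIF4 genes called lower were also 0, and 0 to 1 (also 0 to 1 for eIF4) with each library left out in turn. In that scaling Eif3h went to -0.15 and Eif4b to -0.014, and with upper-quartile scaling Eif4b went to -0.00038. The correction for GC content and length changed the shift of these log2 ratios between groups: to -0.031 for Eif4g1/Eif4g2, 0.18 for Eif4g1/Eif4g3, 0.60 for Eif4ebp1/Eif4ebp2, 0.10 for Eif4ebp1/Eif4e, 0.22 for Eif5a/Eif5a2, -0.040 for Eif1a/Eif1ax, -0.13 for Eif1/Eif5, -0.59 for Eif3h/Eif3a, -0.47 for Eif3k/Eif3a and -0.40 for Eif3f/Eif3a. The cause was not tested. Over all genes 5577 were called, against 3261 in DESeq2, 2914 without PBS A and 3276 without dopamine B. The share of those calls that were higher was 67.1%, against 36.3% in the first scaling named, 38.6% with upper-quartile scaling and 53.5% with edgeR's TMM. With the column number as a replicate block, 42 members were called higher, Eif3f among them, and 1 lower; deviations of same-numbered libraries correlated at 0.21, which with 2 pairs does not show pairing. The fits with a library left out leave 1 library in a group and assume it varies like the other group.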
